A study of Mus musculus with 2 samples.

Results

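The GIMAP genes (GTPases of the immunity-associated proteins) encode guanine nucleotide-binding proteins of lymphocytes, some of which sit on membranes inside the cell. They were taken as the rows of the deposited expression table whose name is Gimap1, Gimap3, Gimap4, Gimap5, Gimap6, Gimap7, Gimap8 or Gimap9, which gave 8 of 17024 genes. The study compared by RNA sequencing T cells positive for GFP from IL17A_IRES_GFP Knockin mice, named Th17, with GFP-positive group 3 innate lymphoid cells from IL23R_GFP Knockin mice, named ILC3. The mice were C57BL/6 and 6 to 8 weeks of age, and both populations were isolated from their small intestine. Each group held 1 library, so the mouse line, the reporter, the gate and the cell type differ together. No difference given here has a replicate check. How many animals a library stands for is not stated.

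GIMAP proteins share a GTP-binding domain of a type related to plant chloroplast import receptors, and some are held in membranes by a hydrophobic tail. Members differ in where they sit, which includes the endoplasmic reticulum, the Golgi, lysosomes and the outer mitochondrial membrane. The family is best known for keeping resting lymphocytes alive. Loss of Gimap5 lowers the numbers of T cells in rats and mice, and Gimap5-deficient mice develop colitis. Gimap1 is required for mature T and B cells in mice. Gimap6 binds a protein of the autophagy machinery, and Gimap4 speeds the death of mouse T cells that have begun apoptosis. GIMAP transcripts are also found in endothelium.

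In the GRCm38 reference all 8 genes lie side by side on chromosome 6, in the order Gimap8, Gimap9, Gimap4, Gimap6, Gimap7, Gimap1, Gimap5 and Gimap3. No other protein-coding gene of the RefSeq annotation starts between the first and the last. Their coding sequences are related but mostly distinct. Over 28 pairs, 27 had identities between 31.2% and 62.1% of the aligned length and shared no stretch of 36 bases. The exception was Gimap5 and Gimap3, neighbours that read in opposite directions, with 84.3% identity over the alignment. Of the 36-base words in the Gimap5 coding sequence, 32.6% also occur in Gimap3, and 33.4% of those in Gimap3 occur in Gimap5. The stretch that holds their longest identical run, 140 bases, is shown because reads from that run cannot be assigned to either gene by sequence. It begins with codons of the nucleotide-binding loop. Both lines run 5′ to 3′ along the coding strand and are copied from GENCODE transcripts on build GRCm38, for Gimap3 from chr6:48765665-48765904 on the minus strand and for Gimap5 from chr6:48752600-48752839 on the plus strand. Capitals mark the 5 differences in 240 bases.
Gimap3 coding stretch: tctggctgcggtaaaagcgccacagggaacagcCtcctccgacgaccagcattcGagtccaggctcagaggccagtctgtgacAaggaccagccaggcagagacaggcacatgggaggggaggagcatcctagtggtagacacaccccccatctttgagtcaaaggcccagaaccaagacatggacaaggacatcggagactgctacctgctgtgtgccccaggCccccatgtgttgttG
Gimap5 coding stretch: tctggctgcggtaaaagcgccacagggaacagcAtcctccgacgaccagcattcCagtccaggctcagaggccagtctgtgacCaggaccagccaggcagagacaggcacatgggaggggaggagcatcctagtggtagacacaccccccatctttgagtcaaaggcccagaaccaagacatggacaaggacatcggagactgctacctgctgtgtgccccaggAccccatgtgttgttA
How the authors' counting treated such reads is not stated, so the split between Gimap3 and Gimap5 is uncertain and their summed value is given beside the single ones. An older name of Gimap3 in RefSeq is also Gimap5, although the table has a row for each.

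Upstream sequences are shown for the members at the ends of the comparison, Gimap7 and Gimap6 with the highest ratios of Th17 over ILC3 and Gimap5 and Gimap3 with the lowest. Each line gives the 250 bases before the RefSeq start of the gene on build GRCm38.p6, 5′ to 3′ along the gene. They lie at chr6:48718371-48718620 on the plus strand for Gimap7, at chr6:48708245-48708494 on the minus strand for Gimap6, at chr6:48745947-48746196 on the plus strand for Gimap5 and at chr6:48770852-48771101 on the minus strand for Gimap3. Capitals mark matches to the motifs listed next.
Gimap7 upstream: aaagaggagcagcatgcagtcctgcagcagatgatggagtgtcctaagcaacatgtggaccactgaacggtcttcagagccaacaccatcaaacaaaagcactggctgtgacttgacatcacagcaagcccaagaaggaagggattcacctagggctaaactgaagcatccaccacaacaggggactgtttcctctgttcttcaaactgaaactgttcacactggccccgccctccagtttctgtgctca
Gimap6 upstream: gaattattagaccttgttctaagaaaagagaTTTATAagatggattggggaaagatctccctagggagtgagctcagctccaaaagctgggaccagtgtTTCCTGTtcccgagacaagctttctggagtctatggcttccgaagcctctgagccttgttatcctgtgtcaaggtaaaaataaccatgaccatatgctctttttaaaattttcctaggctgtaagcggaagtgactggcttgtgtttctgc
Gimap5 upstream: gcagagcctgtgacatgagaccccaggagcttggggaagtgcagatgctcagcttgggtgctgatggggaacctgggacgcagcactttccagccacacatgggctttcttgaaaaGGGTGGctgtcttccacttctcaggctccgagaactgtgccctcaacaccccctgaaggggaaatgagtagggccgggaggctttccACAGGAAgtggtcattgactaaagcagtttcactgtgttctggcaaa
Gimap3 upstream: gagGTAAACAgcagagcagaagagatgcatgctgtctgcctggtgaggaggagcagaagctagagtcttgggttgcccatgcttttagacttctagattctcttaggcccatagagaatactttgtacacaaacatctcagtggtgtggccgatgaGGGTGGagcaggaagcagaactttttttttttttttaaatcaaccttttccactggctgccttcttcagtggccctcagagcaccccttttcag
Windows of 300 bases, from 250 before to 50 after the start, were searched on both strands for letters of 8 motifs. All 8 members had a window, and Gimap8 had 2. The KLF letters, CCACCC, were in windows of 5 members, against 31.5% of all 32851 promoter windows. The ETS letters, ACAGGAA, were in those of 3 members, Gimap9, Gimap6 and Gimap5, against 8.67% of all windows. The TCF letters, CTTTGA, were found in Gimap4 and Gimap7, against 16.0% of all windows. Gimap4 held the ROR letters, AGGTCA, which 16.3% of all windows hold. Gimap3 held the forkhead letters, GTAAACA, which 3.65% of all windows hold. Gimap6 held the TATA letters, TATAAA, which 13.6% of all windows hold. No member window held the AP-1 letters, TGANTCA, which are in 7.81% of all windows, or the RUNX letters, TGTGGTT, which are in 5.27%. In Gimap4 the ROR and TCF matches overlap each other, beginning 23 and 26 bases from the start. In the printed Gimap5 stretch the ETS match begins 47 bases before the start. The Gimap7 stretch holds no match, since its TCF letters lie past the start. These matches describe letters and show no binding. Of the 4 printed members, Gimap5 and Gimap3 hold the KLF letters and Gimap7 and Gimap6 do not. Gimap9 and Gimap4, which were also higher in Th17, hold them as well, as does Gimap8.

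Summed over the table, the Th17 library held 17599180 reads and the ILC3 library 22576436. Values are the authors' normalized counts, that is reads divided by a size factor for each library. The sort was checked on marker genes. The 9 T cell markers, led by Cd6, Cd5 and Themis, were all at least 4-fold higher in Th17. Of the 10431 genes to which the 4-fold rule given below was applied, 6.4% were higher in Th17 by that rule. The summed level of the 9 markers was 85825 normalized counts in Th17 against 5509 in ILC3. Of 10 ILC3 and lymphoid tissue inducer markers, 6 were at least 4-fold higher in ILC3, against 8.39% of those 10431 genes. The 10 had a summed level of 26459.9 in Th17 against 100377 in ILC3, whereas Lta went the other way without reaching 4-fold. Ratios are Th17 over ILC3 with exact 95% intervals from the recovered whole reads. They cover counting error only, with each read taken as independent. Several reads can stem from a single molecule, so the intervals can be too narrow even for that. They set one library against the other and say nothing of the spread between animals.

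Every GIMAP gene was well above detection in both libraries, and the family as a whole differed little between them. The summed level of the 8 genes was 47457 normalized counts in Th17 against 38641 in ILC3, a ratio of 1.23 (1.21 to 1.24). As a share of all reads that was 0.229% in Th17 (exact binomial 95% interval 0.227% to 0.232%) and 0.201% in ILC3 (0.199% to 0.203%). The direction of this small difference depends on the scaling. Centred on 38 constitutive genes, which were themselves higher in Th17 by a median of 0.49 on the log2 scale, the ratio was 0.875. With the authors' scaling it was 1.43 without Gimap3, the member with the most reads.

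A difference was called large at 4-fold or more on log2(normalized count + 1), provided that the higher library reached 100. None of the 8 GIMAP genes was called, in either direction, against 14.8% of the 10431 genes that reached 100 (6.4% higher in Th17 and 8.39% higher in ILC3). At 2-fold, 1 member was called, Gimap7, higher in Th17, against 32.3% of genes in both directions together, 16.2% higher in Th17 and 16% higher in ILC3. Each of the 8 has an adjusted p of 1 in the authors' deposited table, a value with no replicate behind it. The share of all genes at that value was not computed, so it does not show equal levels. The counting interval excluded equal values for all 8 members, 5 higher in Th17 and 3 higher in ILC3. It also did so for 81.5% of the 13719 measured genes, those with a mean of at least 10 normalized counts (41.7% higher in Th17 and 39.8% higher in ILC3), so that count is close to what the depth gives for most genes.

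**Figure D1:**
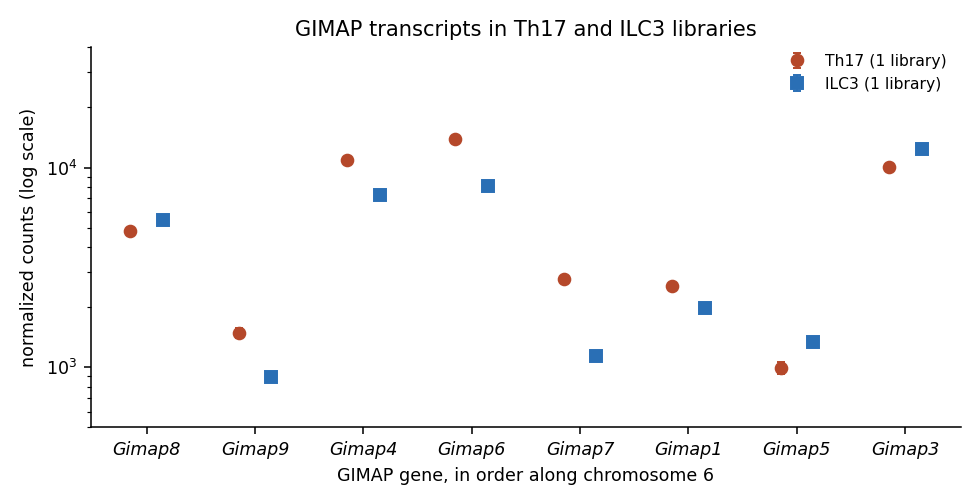
Normalized counts (log axis) of the 8 GIMAP genes in the Th17 library (circles) and the ILC3 library (squares), in order along chromosome 6, with exact 95% counting intervals that are mostly smaller than the symbols. Gimap9, Gimap4, Gimap6, Gimap7 and Gimap1 stand higher in Th17, and Gimap8, Gimap5 and Gimap3 lower.

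The members with higher values in Th17 were led by Gimap7, whose human protein can pair with other family members and stimulate GTP hydrolysis. Gimap7 had 2759 normalized counts in Th17 against 1133 in ILC3, a ratio of 2.44 (2.28 to 2.61). This was the largest difference in the family, and it stood at percentile 87.3 of the ratios of all measured genes. Gimap6, the member tied to autophagy, had 13913 in Th17 against 8126 in ILC3 (1.71, 1.67 to 1.76). It had the highest normalized count of the family in Th17. Gimap9, a close relative of Gimap7 in sequence, had 1486 in Th17 against 894 in ILC3 (1.66, 1.53 to 1.81). Gimap4, which speeds T cell death, had 10903 in Th17 against 7303 in ILC3 (1.49, 1.45 to 1.54). Gimap1, required by mature lymphocytes, had 2542 in Th17 against 1972 in ILC3 (1.29, 1.22 to 1.37). Gimap1 is the member of this group nearest to equality, and it fell on the other side of it, at -0.12 on the log2 scale, when centred on the constitutive genes.

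The members with lower values in Th17 differed by at most 1.35-fold. Gimap5, the survival factor whose loss causes lymphopenia, had 989 normalized counts in Th17 against 1332 in ILC3, a level 1.35-fold higher in ILC3 (1.24 to 1.47). Gimap3, its close copy in the mouse and a protein of the mitochondrial outer membrane, had 10042 in Th17 against 12434 in ILC3, a level 1.24-fold higher in ILC3 (1.21 to 1.27). Summed over both genes, the level was 11031 in Th17 against 13766 in ILC3, a level 1.25-fold higher in ILC3 (1.22 to 1.28). The sum does not depend on how shared reads were split between the genes, but it does on whether such reads were dropped. As both single values lie on that side, the side of the sum follows from them, and most of the sum is Gimap3. Gimap8, a member with several GTP-binding domains, had 4822 in Th17 against 5447 in ILC3, a level 1.13-fold higher in ILC3 (1.09 to 1.17). With reads grouped by 10, to allow for reads that are copies of one molecule, the interval of Gimap8 reached from 0.996 to 1.28, and it was the member of 8 whose interval then held equal values.

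**Figure D2:**
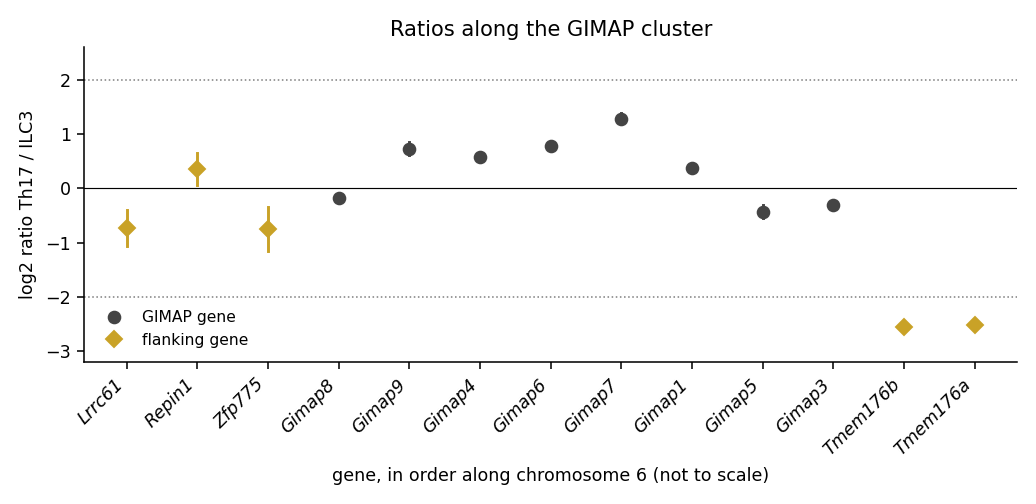
Log2 ratio of Th17 over ILC3 for GIMAP genes (circles) and for flanking genes with at least 100 normalized counts in either library (diamonds), in order along chromosome 6 and not to scale, with exact 95% counting intervals as vertical lines and dotted lines at 4-fold. The GIMAP genes range from -0.43 to 1.28, whereas Tmem176b and Tmem176a, next to Gimap3, lie at -2.55 and -2.53.

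Set in chromosomal order, members on the same side were mostly neighbours. Gimap9, Gimap4, Gimap6, Gimap7 and Gimap1, which follow each other, were all higher in Th17, while Gimap8 at one end and Gimap5 and Gimap3 at the other were higher in ILC3. That order is a description of 8 genes in 2 libraries. In the GENCODE annotation a readthrough gene, Gm28053, spans Gimap7, Gimap1 and Gimap5 on their strand, and the antisense transcript Gimap1os overlaps Gimap1. Neither had a row in the table, and whether the counting used strand is not given, so reads of these 3 members cannot be told apart from theirs.

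The neighbours of the cluster next to Gimap3 stood outside the range of its ratios, and those beyond Gimap8 were mixed. Of 7 measured flanking genes on chromosome 6, 2 had a large difference, Tmem176b and Tmem176a, both higher in ILC3, against 8.39% of all genes in that direction. They encode related membrane proteins known from dendritic cells and from cells with the lineage factor RORγt. Tmem176b had 2919.7 normalized counts in Th17 against 17157 in ILC3, a level 5.88-fold higher in ILC3 (5.64 to 6.13). Tmem176a had 2364 in Th17 against 13618 in ILC3, a level 5.76-fold higher in ILC3 (5.50 to 6.04). The drop from Gimap3 to its neighbour Tmem176b is thus larger than any step within the cluster, and their intervals do not overlap. Beyond them, Abp1, an older symbol of the diamine oxidase gene Aoc1, was listed at 0 in Th17 and had 24.7 in ILC3. That was 6.99-fold higher in ILC3 against a floor of 3 reads per library, and the lower end of its counting interval was 5.33-fold. On the Gimap8 side of the cluster the levels were low. Repin1, which encodes a zinc finger protein, had 219 in Th17 against 171 in ILC3 (1.28, 1.04 to 1.57), a ratio within the range of the GIMAP genes. Zfp775, the next gene to Gimap8, had 87.02 in Th17 against 146 in ILC3, a level 1.68-fold higher in ILC3 (1.27 to 2.24), and Lrrc61 had 129 in Th17 against 214 in ILC3 (1.66-fold, 1.32 to 2.09). Rarres2, encoding the chemoattractant chemerin, was listed at 0 in Th17 and had 52.7 in ILC3, at least 14.9-fold higher in ILC3 against the same floor.

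The same 3 members led the family in both libraries. Levels of different genes were compared per kilobase of the longest coding transcript in GENCODE on GRCm38. In Th17, Gimap4 was highest with 6044 normalized counts per kilobase, followed by Gimap3 (4682), Gimap6 (4377), Gimap7 (2174), Gimap1 (1703), Gimap8 (1526), Gimap9 (1074) and Gimap5 (506). In ILC3 the order per kilobase was Gimap3 (5797), Gimap4 (4048), Gimap6 (2556), Gimap8 (1724), Gimap1 (1321), Gimap7 (893), Gimap5 (682) and Gimap9 (646). As no library has a replicate, neighbours in these orders cannot be told apart beyond counting error. Lengths matter among Gimap4, Gimap3 and Gimap6, because with the shorter of the annotated full-length coding transcripts Gimap6 reached 8728 per kilobase in Th17 and came first there, and it came second in ILC3 with 5098. Gimap5 and Gimap9 filled the lowest places of the ILC3 order with levels per kilobase that lie close together. Among 12281 measured genes with a transcript length, Gimap4 stood at percentile 98.5 in Th17 against 97.9 in ILC3 of the level per kilobase. Gimap5 stood at percentile 78 in Th17 against 85.2 in ILC3, so even the lowest member in Th17 was above most measured genes. Per kilobase Gimap3 was 9.25-fold above Gimap5 in Th17 and 8.501-fold above it in ILC3, with the uncertainty of shared reads stated above.

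**Figure D3:**
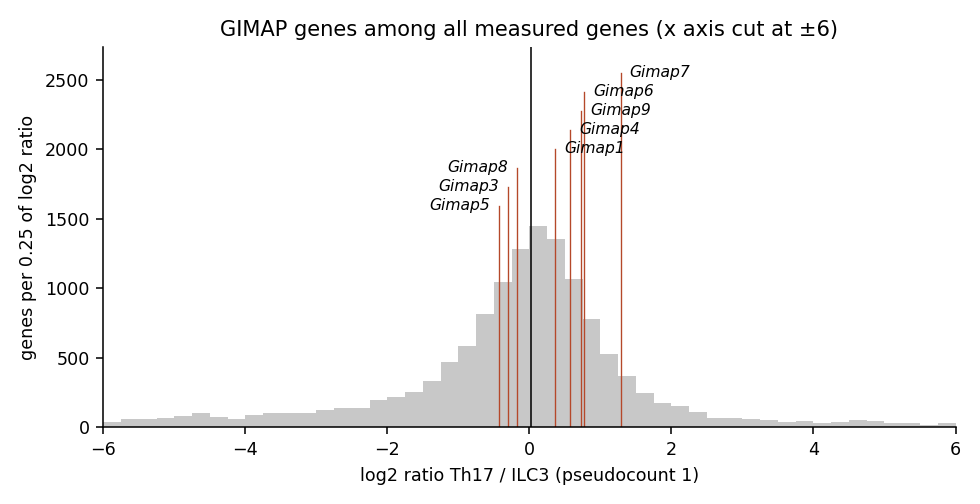
Distribution of the log2 ratio of Th17 over ILC3 (pseudocount 1) over 13719 measured genes in bins of 0.25 (grey; the x axis shows -6 to 6), with the median of all genes as a black line and each GIMAP gene as a labelled line. The GIMAP genes lie between -0.43 and 1.28, and 3 of the 8 stand above the upper quartile of all measured genes, 0.66.

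The members spread from below the middle of all measured genes to above their upper quartile. The median log2 ratio of the 8 members was 0.47, beside 0.02 over the 13719 measured genes, whose quartiles were -0.83 and 0.66. Of the members, 5 lay between these quartiles and 3 (Gimap9, Gimap6 and Gimap7) above the upper one. None lay below the lower one. The SD of the log2 ratio among members was 0.61, and from Gimap5 to Gimap7 the ratio changed 3.28-fold. The 3 genes nearest to the median member, by distance over the log2 levels of 2 libraries, were Tardbp with 3617 normalized counts in Th17 against 3248 in ILC3, Zzef1 with 3616 and 3322 in the same order, and Pitpna with 3709.9 and 3232. With 2 libraries this likeness says only that both levels are similar.

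Other gene groups, some of them tied to GIMAP function, were read beside the family. The interferon-inducible GTPases, a separate group of immune GTP-binding proteins, had 14 of 16 measured members with higher values in Th17, against 50.7% of all measured genes, and a median log2 ratio of 0.64. Mx1 had 182 normalized counts in Th17 against 13.6 in ILC3 (13.4, 7.99 to 24.02). Gbp3 had 1204 in Th17 against 276 in ILC3 (4.37, 3.85 to 4.97). These 2 of 16 had a large difference, both higher in Th17, against 6.4% of all genes in that direction. Igtp, the most highly expressed without one, had 4151 in Th17 against 2604 in ILC3.

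BCL2 family proteins and GSK3, with which GIMAP proteins have been linked in cell survival, had no large difference among 11 measured genes (median log2 ratio 0.16). Mcl1, an antiapoptotic gene and the most highly expressed of them, had 8290.0 normalized counts in Th17 against 8430.2 in ILC3. At 2-fold, 2 of the 11 were called, Bcl2 and Bbc3, both higher in ILC3, against 16% of all genes in that direction, a share near the background. Autophagy and lysosome genes, with which Gimap6 and Gimap5 are connected, had no large difference among 15 measured genes either (median log2 ratio -0.24). Sqstm1, the cargo receptor p62 and the most highly expressed of them, had 12087 in Th17 against 33543 in ILC3, a level 2.78-fold higher in ILC3 (2.72 to 2.84). Gabarapl2, the binding partner of Gimap6, was named for that reason, after its value was seen. It had 1181 in Th17 against 2067 in ILC3, a level 1.75-fold higher in ILC3 (1.63 to 1.89), opposite in side to Gimap6. Of the 15 genes in the list, 9 had higher values in ILC3 and 6 in Th17. The related Gabarap and Gabarapl1 were 1.20-fold and 1.21-fold higher in ILC3, and Map1lc3b was 1.21-fold higher in Th17.

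**Figure D4:**
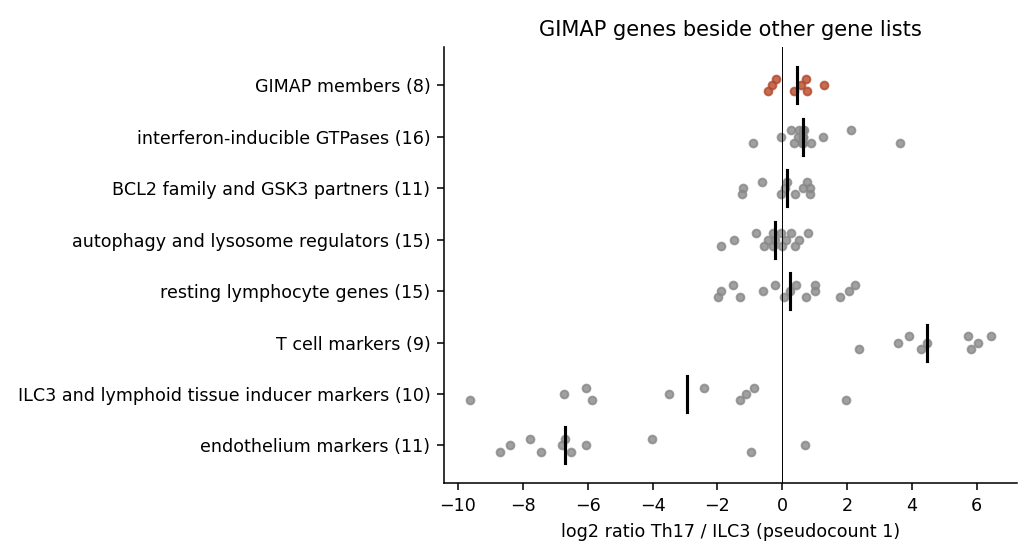
Log2 ratio of Th17 over ILC3 (pseudocount 1) for each measured gene of 8 lists, with the number measured in brackets and the list's median as a black bar. The GIMAP median, 0.47, lies between those of the T cell markers, 4.46, and of the ILC3 markers, -2.95, and endothelium markers, -6.69. So do the medians of the other lists shown and that of all measured genes, 0.02. The endothelium marker Egfl7, at 0.72, lies among the GIMAP genes, on 16 reads in Th17 and 13 in ILC3. Its ratio interval, 0.77 to 3.85, holds equal values. The ILC3 marker Lta, at 1.99, lies beyond the GIMAP genes on the Th17 side.

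Markers of endothelium, where GIMAP genes are also transcribed, differed between the libraries. Of 14 endothelium markers, 11 were measured and 9 had a large difference, all higher in ILC3, against 8.39% of all genes in that direction. In Th17, 7 of the 14 were listed at 0, among them Cdh5, Kdr and Vwf, and none was at 0 in ILC3. The summed level of the 14 was 2012 normalized counts in Th17 against 7649 in ILC3, most of the Th17 level being Pecam1, which leukocytes also express. Without Pecam1 the other 13 summed to 47.04 in Th17 against 3847 in ILC3. The summed GIMAP level in ILC3 was 38641, and how much of it came from such cells was not tested. The 8 stroma markers summed to 448 in Th17 against 8206 in ILC3, the 7 listed B and plasma cell markers to 3250.2 and 13667, the 9 listed macrophage and dendritic cell markers to 746 and 1198, and the 8 epithelium markers to 203 and 1241, each with Th17 before ILC3. Single genes carry much of some of these sums. In Th17, Pdgfrb made up 400 of the stroma sum and Sdc1 2354 of the B and plasma cell sum. Igj made up 10299 of the latter in ILC3. The macrophage and dendritic cell markers were mixed, with 3 of 9 (Csf1r, C1qa and C1qb) on the Th17 side. All stroma and epithelium markers lay on the ILC3 side. The part of all these cell types in the GIMAP values was likewise not tested. In such sorted samples, fewer cells of a type and less RNA per cell cannot be told apart.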

How the data were processed

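RNA of 2 sorted populations was measured, with 1 library each; the titles gave the groups. DESeq 1.12.0, HTSeq 0.5.4p3, TopHat2 2.0.6 and the build mm8 are named, without role or settings, per the submitters' processing notes. The signal columns are the authors' normalized counts, read counts divided by a size factor per library; their headers call them means, but a group has 1 library. The adjusted p-value per gene is also the authors' and has no replicate behind it.

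Of 17048 rows, 24 whose names had become calendar dates were left out (0.251% of Th17 and 0.297% of ILC3 reads); the septin list had no row left. Whole reads were recovered by dividing by the lowest value above 0, 1.18 for Th17 and 0.8504 for ILC3, and 100% of values came out whole within 0.001 reads. No replicated count model could be fitted. On the recovered reads the ratio's exact conditional binomial 95% interval left out equality for 12296 of 17024 genes, 6347 higher in Th17 and 5949 in ILC3.

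Differences are log2(Th17/ILC3) with a pseudocount of 1, which understates those of low genes; folds in the text have none. The members and gene lists were chosen with earlier results of these data known. The rule for named genes took all members, all measured flanking genes, and per list up to 3 of the largest differences and the highest gene without one. It also took the 3 genes nearest to the median member; a few partners were added after their values were seen, and 1 gene of the resting lymphocyte list is not reported here. Of the listed flanking genes, Kcnh2 and Nos3 lie on chromosome 5 and were set aside. Sequences and transcript lengths are from RefSeq and GENCODE on GRCm38, not the authors' build. The calculations were tested on simulated libraries. Software was scipy 1.17.1, Biopython 1.88, pandas 2.3.3, numpy 2.4.6 and matplotlib 3.10.9 under Python 3.11.15.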

Additional observations from a re-analysis of the deposited data

How the results depend on the processing

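No paired analysis was possible because each group held 1 library. Under 4 other scalings, pseudocounts of 0.1 and 10 and minimums of 10 and 1000 normalized counts, the number of GIMAP genes past 4-fold was 0 in both directions. The number past 2-fold was 1 higher in Th17 (Gimap7) and 0 higher in ILC3, with an exception for centring on the constitutive genes, where it was 0 in Th17. The summed ratio was 1.23, and it became 1.14 with scaling to total reads, 1.33 with the upper quartile, 0.875 centred on the constitutive genes and 1.43 without Gimap3. The median log2 ratio of 0.47 became -0.0169 under that centring, which by construction lowered the median of all measured genes to -0.47, so relative to all genes the family did not move. Scaling to total reads shifted every log2 ratio by -0.11 and the upper quartile by 0.12. The same centring turned the sign of 1 of 8 members, Gimap1; the other scalings turned none. With reads grouped by 10, added after seeing the data, 7 of 8 counting intervals excluded equal values. With 1 library per group the spread between animals is unknown, and depth is not what limits these values.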

Other observations

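Genes of resting lymphocytes, the state in which GIMAP genes are best known, went both ways. Foxo1, a transcription factor of quiescent lymphocytes, had 15104 normalized counts in Th17 against 3586 in ILC3 (4.21, 4.07 to 4.36), a large difference. Of 15 measured genes, 5 were at least 2-fold higher in Th17 and 4 at least 2-fold higher in ILC3, against background shares of 16.2% for Th17 and 16% for ILC3 over all genes. Btg1, a growth-inhibiting gene and the most highly expressed without a large difference, had 51486 in Th17 against 43738 in ILC3. The median log2 ratio of the list was 0.24.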
